A study of Mus musculus with 24 samples.

Results

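The response to PCN was measured in livers that lack both of the receptors through which foreign compounds switch on drug metabolism. The mice were CAR/PXR-deficient, and their 6 arrays, the replicates labelled 1 to 6 under that genotype, were taken out of 24 in the series by their titles. PCN (pregnenolone 16α-carbonitrile) is a synthetic steroid that activates PXR, the pregnane X receptor, in rodents. CAR is the constitutive androstane receptor. On each array Cy5 carried RNA of CAR/PXR-deficient livers taken 12 h after an injection of PCN at 40 mg/kg into the peritoneum. Cy3 carried a pool of vehicle-injected (5% DMSO in corn oil) livers of the same genotype, called untreated in one of the labels. The other 3 genotypes, used here for comparison, were CAR-deficient, PXR-deficient and wild type, with 6 arrays each, the same dose, time and vehicle, and a vehicle pool of their own. All animals were male C57BL/6J mice aged 9 to 12 weeks on standard chow and a 12 h light and 12 h dark cycle. The labels do not give the targeted alleles. They also state that RNA of 6 replicates was pooled, without saying for which channel, so that the spread between arrays may be technical.

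PXR and CAR are nuclear receptors of the hepatocyte. After binding of a ligand, or after release from the cytoplasm in the case of CAR, they pair with the retinoid X receptor on DNA. Their known liver targets include cytochrome P450 enzymes of the 2B, 2C and 3A subfamilies, conjugating enzymes, and transporters that move drugs and bile acids across the hepatocyte membrane. Both also act on genes of glucose, lipid and bile acid metabolism, and PXR ligands are known to dampen inflammatory gene expression in liver.

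The log2 ratio of Cy5 over Cy3, after normalization within each array, is positive where the level was higher after PCN than in the vehicle pool. It was tested against 0 with limma for the 236 of 284 mouse probes that were bright enough, and a probe is called when its p adjusted by the Benjamini-Hochberg method was below 0.05. The vehicle pool is 1 control sample, so that the test leaves out the spread among vehicle-treated mice, and no dye was swapped. A gene was paired with 147 of the 284 mouse probes, and the others are given by probe ID.

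Between 173 and 231 mouse probes were seen above background on the 6 arrays, and the number of arrays limits the precision. Replicates 5 and 6 stood apart from the rest, with a Cy5 background of 0 and with 14.3% and 18.1% of their Cy5 spots at 0. Results were therefore also computed without that pair. Across the 236 probes the 6 arrays correlated with each other with r between 0.884 and 0.973, and with r between 0.35 and 0.719 once the 7 probes past 2-fold were left out. With arrays of CAR-deficient livers r ran from -0.804 to 0.036, with PXR-deficient livers from -0.776 to 0.03 and with wild type livers from -0.362 to 0.071. The labels state the dyes, and the direction they give was kept. Without the probes past 2-fold those ranges were -0.297 to 0.169, -0.486 to -0.018 and -0.315 to 0.132.

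The probes for the deleted receptors did not report the deletions. The probe of Nr1i2, which encodes PXR, had log2 Cy3 levels of 7.85 to 8.41 in the CAR/PXR-deficient pool, against 7.13 to 7.68 in the wild type pool. The probe of Nr1i3, which encodes CAR, had 7.40 to 7.83 in the CAR/PXR-deficient pool, against 7.74 to 8.08 in the wild type pool. Where these probes lie relative to the deleted parts is not known here, so they check neither label. Of the hepatocyte markers only Apoa1 had a probe, with a log2 Cy5 level of 13.1 ± 0.13 in CAR/PXR-deficient livers and 13.2 ± 0.34 in wild type livers (SD, n = 6 each). No listed marker of cholangiocytes, macrophages, stellate or endothelial cells had one. In whole liver, fewer cells of a type and less RNA per cell cannot be told apart.

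After PCN 53 of the 236 probes differed from the vehicle pool in CAR/PXR-deficient liver, which is 22.5% of those tested. Of these, 25 rose (10.6%) and 28 fell (11.9%). The same sign on 6 of 6 arrays was found for 49 of the 53, and for 94 of all 236 probes. A call made on these same arrays favours a shared sign. The response was made of a few large rises and many small changes. Only 7 probes rose 2-fold or more and 0 fell that far, while 194 probes (82.2%) stayed within 0.25 of 0 on the log2 scale. The median log2 ratio was 0.39 among the rises, -0.30 among the falls and 0.04 over all probes tested. With arrays centred on control probes, which moved the median of all probes by -0.15, 20 rose and 14 fell, and without normalization within arrays 9 rose and 0 fell. Without replicates 5 and 6 the count was 34, with 17 rises and 17 falls, and all 34 were among the 53. Genes were named for 10 of the rises and 15 of the falls. In CAR-deficient livers 16.9% of the probes were called against 0 (6.78% rose and 10.2% fell), in PXR-deficient livers 39% (19.5% rose and 19.5% fell) and in wild type livers 37.7% (21.2% rose and 16.5% fell).

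**Figure D1:**
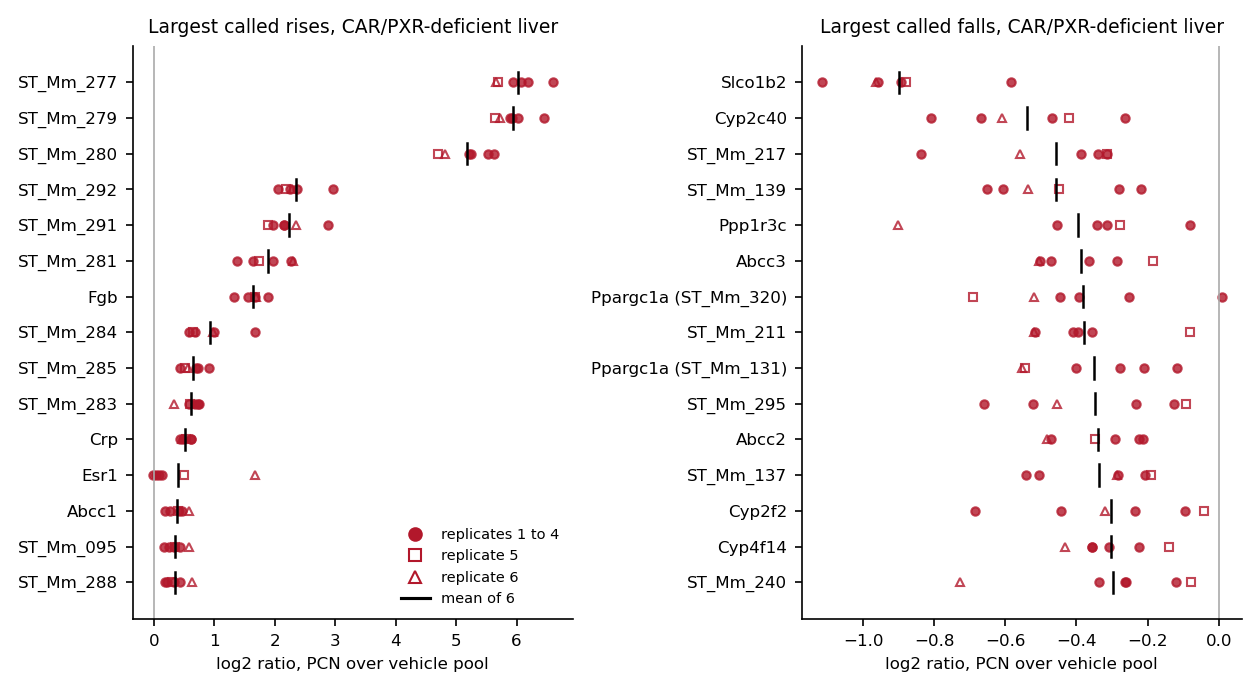
Log2 ratio of PCN-treated liver over vehicle pool on each of the 6 CAR/PXR-deficient arrays, for the 15 largest rises (left) and the 15 largest falls (right) among called probes whose sign was shared by 5 or more arrays. Each point is 1 array, open symbols mark replicates 5 and 6, and black bars are means of 6. The horizontal scales of the panels differ. ST_Mm_277, ST_Mm_279 and ST_Mm_280 lie above 4 on every array, and Slco1b2 lies below -0.5 on every array.

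The 3 largest rises were probes without a paired gene. ST_Mm_277 had log2 ratios of 6.60, 6.19, 6.07, 5.93, 5.69 and 5.66 on the 6 arrays. The lowest of these lies far above the highest value of any other genotype, which was 0.30 in wild type livers. Its mean of 6.03 ± 0.35 (SD, n = 6; 95% interval 5.34 to 6.72) is a 65.1-fold rise, with a limma adjusted p of 1.04e-13. ST_Mm_279 rose by 5.94 ± 0.29 and ST_Mm_280 by 5.19 ± 0.37 (SD, n = 6 each), and replicate 1 gave the highest value of all 3 probes. The vehicle pool was well above background on 3 of 6 arrays for ST_Mm_280, so that its ratio is less firmly measured. ST_Mm_292, ST_Mm_291 and ST_Mm_281 followed with means of 2.35, 2.24 and 1.88 and the same sign on 6 of 6 arrays.

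Fgb was the largest rise with a named gene. It encodes the beta chain of fibrinogen, the clotting protein made by hepatocytes and raised in the acute-phase response. Its log2 ratios on the 6 arrays were 1.89, 1.32, 1.56, 1.67, 1.67 and 1.70. Every array was thus above 1.3, and the highest array of another genotype was at 0.0013, in PXR-deficient livers. The mean of 1.64 ± 0.19 (SD, n = 6; 95% interval 1.37 to 1.90) is a 3.11-fold rise with a limma adjusted p of 1.38e-10. In wild type livers the ratios ran from -0.87 over a median of -0.63 to -0.47, so that no array overlapped and Fgb fell there. The difference, CAR/PXR-deficient minus wild type, was 2.28 (95% interval 1.90 to 2.66; limma adjusted p 1.6e-10). Against CAR-deficient livers it was 2.08 and against PXR-deficient livers 2.51, with limma adjusted p of 8.41e-10 and 2.01e-11.

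Crp, which encodes the pentraxin C-reactive protein, also rose. Its log2 ratios were 0.62, 0.48, 0.43, 0.62, 0.53 and 0.46 in CAR/PXR-deficient livers, against a lowest, median and highest value of -0.65, -0.45 and -0.24 in wild type livers. The groups did not overlap. The mean was 0.52 ± 0.08 (SD, n = 6; limma adjusted p 5.88e-05), and CAR/PXR-deficient minus wild type was 0.99, with a 95% interval of 0.72 to 1.25 and a limma adjusted p of 7.91e-07. Both genes therefore rose in CAR/PXR-deficient livers and fell in wild type livers, where Crp had a mean of -0.46 (limma adjusted p 0.000335).

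The promoters of 4 genes on which these results turn are shown, 2 that rose (Fgb and Crp), the largest fall (Slco1b2) and the P450 gene raised most in wild type livers (Cyp3a11). Each is the 250 bases before the annotated start in RefSeq, build GRCm38.p6, read along the gene's strand. Capitals mark matches on either strand to TTCNNNGAA (a STAT motif), TTNNGNAA (a C/EBP motif), GTTAAT (an HNF1 half-site), and AGGTCA or AGTTCA (nuclear receptor half-sites). Fgb lies on the minus strand at chr3:83049864-83050113, Crp on the plus strand at chr1:172697806-172698055, Slco1b2 on the plus strand at chr6:141629268-141629517 and Cyp3a11 on the minus strand at chr5:145879855-145880104.
Fgb: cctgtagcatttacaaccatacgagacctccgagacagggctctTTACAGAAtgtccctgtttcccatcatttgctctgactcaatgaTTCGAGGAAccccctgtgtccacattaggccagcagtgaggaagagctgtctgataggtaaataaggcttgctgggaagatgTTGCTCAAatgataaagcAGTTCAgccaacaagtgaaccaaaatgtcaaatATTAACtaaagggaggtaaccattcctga
Crp: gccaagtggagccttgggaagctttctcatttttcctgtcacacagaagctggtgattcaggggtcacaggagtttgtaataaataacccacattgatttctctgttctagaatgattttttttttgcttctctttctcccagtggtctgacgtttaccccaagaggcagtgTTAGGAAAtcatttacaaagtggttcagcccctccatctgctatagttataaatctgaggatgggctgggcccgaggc
Slco1b2: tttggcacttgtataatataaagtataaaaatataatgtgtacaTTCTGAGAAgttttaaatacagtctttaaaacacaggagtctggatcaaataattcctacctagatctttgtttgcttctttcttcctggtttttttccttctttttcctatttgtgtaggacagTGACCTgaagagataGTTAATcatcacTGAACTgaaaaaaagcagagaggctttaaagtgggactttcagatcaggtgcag
Cyp3a11: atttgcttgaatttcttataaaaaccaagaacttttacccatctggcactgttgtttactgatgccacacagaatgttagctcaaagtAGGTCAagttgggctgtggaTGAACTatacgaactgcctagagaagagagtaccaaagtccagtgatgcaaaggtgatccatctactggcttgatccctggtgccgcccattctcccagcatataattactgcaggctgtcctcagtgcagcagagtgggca
The Fgb window held 5 matches, among them TTCNNNGAA at 162 to 154 bases before the start and the 2 TTNNGNAA matches. The Crp window held 1, a TTNNGNAA match at 78 to 71 bases before the start. Slco1b2 held 4 and Cyp3a11 held 2, those of Cyp3a11 both being nuclear receptor half-sites. No matches overlapped each other. Of the 32851 mouse promoter windows of this length, 7.02% held TTCNNNGAA, 36.8% TTNNGNAA, 6.43% GTTAAT, 14% AGGTCA and 11.8% AGTTCA. Matches to TTNNGNAA are thus common, and those to the other motifs less so. All matches are a description of these letters only.

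The 2 channels showed from which side these ratios came. After normalization between arrays the log2 level of ST_Mm_277 was 14.9 ± 0.21 in Cy5 and 8.90 ± 0.38 in Cy3 of CAR/PXR-deficient livers, against 12.7 ± 0.64 in Cy5 and 12.9 ± 0.62 in Cy3 of wild type livers (SD, n = 6 each). The vehicle pool of CAR/PXR-deficient livers thus differed from the wild type pool by -4.01, and the PCN-treated livers from those of wild type mice by 2.25. Both values are descriptions without a test. For Fgb the difference from wild type was -0.76 in the vehicle pool and 1.52 after PCN, the larger gap being after PCN. Its level was 13.4 ± 0.31 in Cy5 and 11.7 ± 0.28 in Cy3 of CAR/PXR-deficient livers, against 11.8 ± 0.43 in Cy5 and 12.5 ± 0.48 in Cy3 of wild type livers (SD, n = 6 each). For Crp the differences from wild type were -0.76 in the vehicle pool and 0.22 after PCN. Levels of a channel stay open to dye effects, because no dye was swapped. Each Cy3 value repeats 1 pool over the arrays of its genotype, so that its SD is technical.

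**Figure D2:**
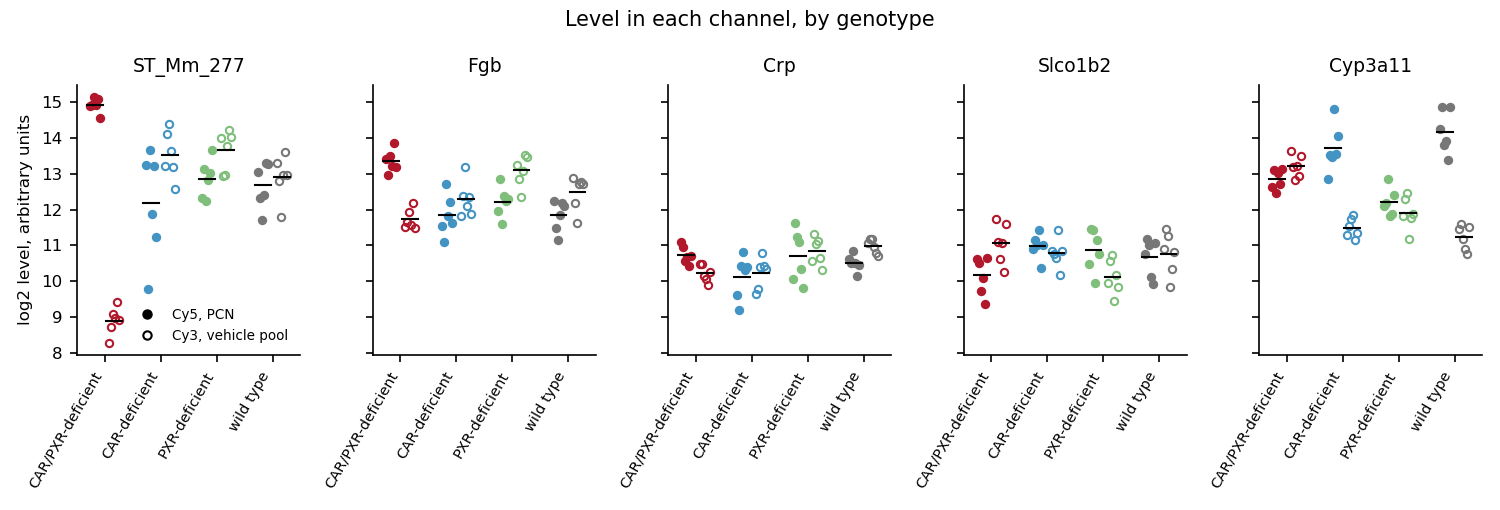
Log2 level in arbitrary units of 5 probes in the Cy5 channel (filled, PCN-treated liver) and the Cy3 channel (open, vehicle pool) of each array, by genotype, 6 arrays each, after normalization between arrays. Bars are means. In CAR/PXR-deficient livers ST_Mm_277 averages 14.9 in Cy5 and 8.90 in Cy3, and Cyp3a11 averages 12.9 in Cy5 and 13.2 in Cy3.

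Among the smaller rises, some rest on dim signal. Abcc1, an efflux transporter of the multidrug resistance protein family, had a lowest, median and highest log2 ratio of 0.18, 0.41 and 0.58 (mean 0.39, limma adjusted p 0.00142). Its vehicle pool was not well above background on any of the 6 arrays. With the pool raised to the dimmest level seen on each array, the level after PCN averaged 1.006 times that of the pool. Esr1, the estrogen receptor alpha gene, passed the test with a mean of 0.40 (limma adjusted p 0.0384), and its arrays gave 0.03, -0.02, 0.13, 0.09, 0.50 and 1.67. The mean was 0.15 without replicate 6 (limma adjusted p 0.327) and 0.38 without replicate 5 (limma adjusted p 0.0869). Esr1 was not well above background in the vehicle pool on any array. With the pool raised as for Abcc1, its level after PCN averaged 0.81 times that of the pool.

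Slco1b2 was the largest fall. It encodes the organic anion transporter OATP1B2, which takes up drugs and bile acids from blood into hepatocytes. Its log2 ratios on the 6 arrays were -1.12, -0.585, -0.89, -0.96, -0.88 and -0.96. Every array was below 0, and no array of the other genotypes was as low. The mean of -0.90 ± 0.18 (SD, n = 6; 95% interval -1.07 to -0.73) corresponds to 0.536 times the pool, with a limma adjusted p of 2.79e-09. In wild type livers the ratios ran from -0.41 over a median of -0.20 to 0.27. The difference, CAR/PXR-deficient minus wild type, was -0.81 (95% interval -1.05 to -0.56; limma adjusted p 5.32e-06). Against CAR-deficient livers it was -1.09, and against PXR-deficient livers, where Slco1b2 rose, it was -1.66.

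Of the ABC transporters, Abcc3, Abcc2 and Abcg8 fell. Abcc3 (MRP3), on the blood side of the hepatocyte, had a lowest, median and highest log2 ratio of -0.50, -0.42 and -0.19 in CAR/PXR-deficient livers, against -0.05, 0.03 and 0.13 in wild type livers. Abcc2 (MRP2), on the bile side, had -0.48, -0.32 and -0.21 in CAR/PXR-deficient livers, against -0.07, 0.11 and 0.21 in wild type livers. Neither gene's groups overlapped. The means were -0.39 for Abcc3 (limma adjusted p 2.97e-06) and -0.34 for Abcc2 (limma adjusted p 1.36e-05), and each differed from all 3 other genotypes. Abcg8, which forms the biliary cholesterol exporter with Abcg5, fell by 0.18 (limma adjusted p 0.0093), with -0.12 and a limma adjusted p of 0.0896 without replicate 6. Over the ABC and SLCO transporter genes, 1 of 12 probes rose and 4 fell, against 10.6% and 11.9% of all probes, with a median of -0.14 against 0.04 over all probes.

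P450 genes that fell did so by less than 1.5-fold. Cyp2c40, a member of the 2C subfamily, had the largest fall among them, with log2 ratios of -0.67, -0.26, -0.47, -0.81, -0.42 and -0.61. All 6 arrays were below 0, and the mean was -0.54 ± 0.19 (SD, n = 6; limma adjusted p 1.56e-05). The difference from wild type was -0.33 (limma adjusted p 0.0524), and it passed the threshold in 9 of 41 alternatives run. Among these were fits without CAR/PXR-deficient replicate 2 (-0.38), without wild type replicate 6 (-0.41), and, at an unchanged -0.33, without PXR-deficient replicate 2 or 4. Cyp2f2 (-0.30, limma adjusted p 0.00489) and Cyp4f14 (-0.30, limma adjusted p 0.000317) fell as well. Cyp2a12, Cyp4b1 and Cyp2d22 are named here after their values were seen, and had means of -0.30, -0.30 and -0.22, all called. Cyp2d22 was no longer called without replicate 1, 3 or 6, with values of -0.19, -0.21 and -0.19. Of these 6 genes, Cyp2a12 and Cyp4b1 also differed from wild type livers, by -0.51 (limma adjusted p 0.000417) and -0.59 (limma adjusted p 1.72e-06). Over the 25 tested probes whose gene symbol starts with Cyp, 1 rose, 6 fell and 18 passed in neither direction. Their median was -0.04, against 10.6%, 11.9% and a median of 0.04 over all probes.

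Both probes of Ppargc1a, the coactivator PGC-1 alpha of gluconeogenesis and mitochondrial genes, fell, with means of -0.35 (limma adjusted p 0.00211) and -0.38 (limma adjusted p 0.0132). The second was not called without replicate 5 (-0.32) or replicate 6 (-0.35), and neither was called without both. Wild type livers had -0.63 and -0.71 for the same probes, and the differences from wild type, 0.28 and 0.33, did not pass the test (limma adjusted p 0.0939 and 0.158), with the first at a limma adjusted p of 0.0413 without PXR-deficient replicate 2. Ppp1r3c, which targets protein phosphatase 1 to glycogen, fell by 0.39 (limma adjusted p 0.00244), with its lowest value of -0.90 on replicate 6. It averaged -0.37 in wild type livers.

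The probes that PCN raises in wild type livers did not rise alike in CAR/PXR-deficient livers. The set held the 5 probes that were called and at least 2-fold higher in wild type livers. Cyp3a11, the principal PXR target among mouse P450 genes, had log2 ratios of -0.99, -0.08, -0.37, -0.19, -0.22 and -0.38 in CAR/PXR-deficient livers. In wild type livers it had 2.61 as the lowest, 2.90 as the median and 3.35 as the highest value. The groups lie more than 2 apart on the log2 scale. CAR/PXR-deficient minus wild type gave -3.31 with a 95% interval of -3.73 to -2.89 and a limma adjusted p of 8.45e-13. Against 0 the mean of -0.37 ± 0.33 (SD, n = 6) did not pass the test (limma adjusted p 0.0596), although 6 of 6 arrays were below 0. Single arrays moved it across the threshold: the adjusted p was 0.0485 without CAR/PXR-deficient replicate 2, and 0.0447 or 0.0407 without CAR-deficient replicate 1 or 4, which enter only through the shared spread. With the replicate number as a block it was 0.0273. Cyp3a11 was also called with array quality weights, with the CAR/PXR-deficient arrays alone and in the authors' deposited value table. In all, 7 of 42 alternatives run gave a call against 0, with a lowest limma adjusted p of 0.0116. Replicate 1 set the low end, and the mean of the other 5 was -0.25.

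Cyp3a41a, a 3A gene close in sequence to Cyp3a11, had a mean of -0.24 in CAR/PXR-deficient livers (limma adjusted p 0.148) and 2.85 in wild type livers. Its fall against 0 was called in 1 of 42 alternatives run, the authors' deposited value table (limma adjusted p 0.0288). Cross-hybridisation between 3A genes was not tested. ST_Mm_051, a probe without a paired gene, fell to a mean of -0.24 in CAR/PXR-deficient livers (limma adjusted p 0.019), against 1.73 in wild type livers. That fall was not called without replicate 1 (-0.21), 3 (-0.20) or 6 (-0.21). Mbtps1, which encodes the site-1 protease that activates SREBP factors, had 0.01 in CAR/PXR-deficient livers (limma adjusted p 0.925) and 1.09 in wild type livers. Cyp3a13 was the exception, with a rise in both. Its log2 ratios ran from 0.12 over a median of 0.25 to 0.39 in CAR/PXR-deficient livers, against 1.06, 1.21 and 1.42 in wild type livers. The mean of 0.25 (limma adjusted p 0.0162) was lost as a call without replicate 2 (0.23) or replicate 4 (0.22), and its difference from wild type was -0.98 (limma adjusted p 4.48e-08). This set was chosen on the wild type arrays, which also enter the differences from wild type, so that their direction was largely fixed by the choice. Over the 5 probes the mean log2 ratio on the CAR/PXR-deficient arrays was -0.12.

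**Figure D3:**
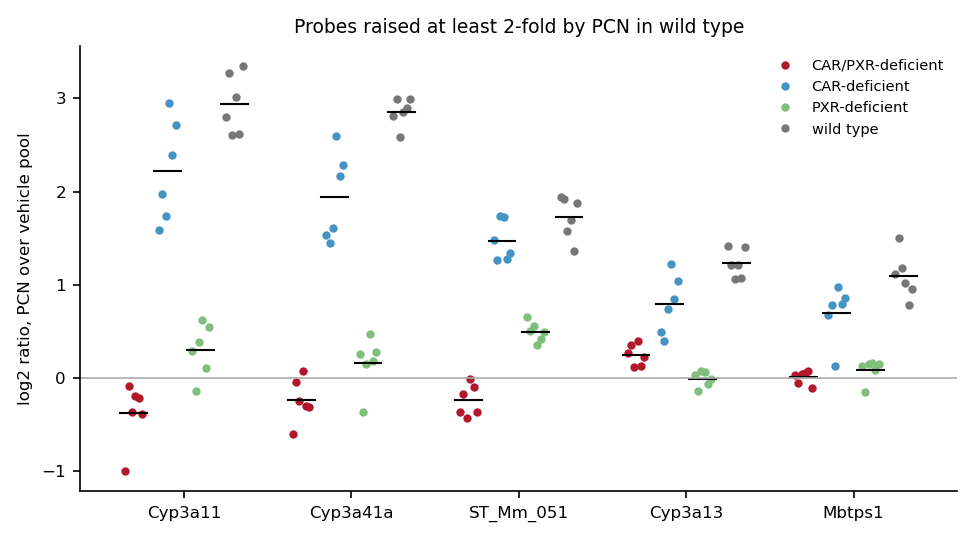
Log2 ratio of PCN-treated liver over vehicle pool for the 5 probes raised at least 2-fold in wild type livers, on each of 6 arrays for each genotype. Bars are means. On CAR/PXR-deficient arrays every value of Cyp3a11 lies below 0, and on wild type arrays every value lies above 2.

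The vehicle pool of CAR/PXR-deficient livers stood out for these genes too. The log2 Cy3 level of Cyp3a11 was 13.2 ± 0.32 in CAR/PXR-deficient livers, against 11.2 ± 0.34 in wild type livers (SD, n = 6 arrays each of 1 pool). In Cy5 it was 12.9 ± 0.28 after PCN in CAR/PXR-deficient livers, against 14.2 ± 0.60 in wild type livers. CAR/PXR-deficient minus wild type was thus 1.98 without PCN and -1.33 with it. The pool values of CAR-deficient and PXR-deficient livers, 11.5 and 11.9, lay nearer to wild type. Cyp3a41a gave 13.0 in the pool of CAR/PXR-deficient livers, against 11.4 in that of wild type livers. As each pool is 1 sample, these gaps carry no test.

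Other genes known to respond to PXR or CAR were followed as a list. Of 32 listed genes 10 had a probe and 9 were tested. Of these, 1 rose (Cyp3a13), 2 fell (Abcc2 and Abcc3) and 6 passed in neither direction, where 10.6% of all probes rose and 11.9% fell. The list's median log2 ratio was -0.16, against 0.04 over all probes. The same probes had a median of 0.36 in wild type livers. Slco1a4, an uptake transporter, had a mean of 0.25 ± 0.26 in CAR/PXR-deficient livers (SD, n = 6; limma adjusted p 0.239) and 0.75 in wild type livers, and its difference from wild type did not pass (limma adjusted p 0.111).

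Of 11 probes for receptors and their partners, 3 rose and 2 fell, against 10.6% and 11.9% of all probes. The falls were both Ppargc1a probes. Nr1h4, the bile acid receptor FXR, had a lowest, median and highest log2 ratio of 0.14, 0.19 and 0.40 (mean 0.22, limma adjusted p 0.00489). Ppara, the fatty acid receptor, had 0.08, 0.21 and 0.33 (mean 0.21, limma adjusted p 0.00101). Esr1 was the remaining rise. Nr1i2 and Nr1i3 averaged 0.15 (limma adjusted p 0.159) and 0.04 (limma adjusted p 0.476).

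Calls on sterol probes are set beside the 22.5% called over all probes. The lists are too short to show a departure from that share. Of 8 probes for cholesterol synthesis 1 was called, Fdps (farnesyl diphosphate synthase) with a mean of 0.22 (limma adjusted p 0.0225), and it was not called without replicate 1 (0.19), 3 (0.22) or 6 (0.18). The list's values ran from -0.17 to 0.22 with a median of 0.03. For sterol regulation and transport, Abcg8 was the 1 call among 9 probes, and the others lay between -0.05 and 0.13. None of the 6 bile acid probes was called by limma, with values from -0.22 for Abcb11, the bile salt export pump, to 0.15 for Cyp8b1, the sterol 12-alpha-hydroxylase. None of the 4 steroid hormone probes was called, and their range was -0.02 to 0.05. Of 4 clock probes, Cry1, a repressor of the circadian clock, rose by 0.19 (limma adjusted p 0.0181). It was not called without replicate 2 (0.17), 3 (0.18) or 5 (0.17), and its vehicle pool was not well above background on any array. With the pool raised to the dimmest level seen on each array, the level after PCN averaged 1.03 times that of the pool. With arrays centred on control probes the mean log2 ratio of Cry1 was -0.06. The list for glucose and stress had 2 probes, Crp, described above, and G6pc at -0.17 (limma adjusted p 0.411).

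**Figure D4:**
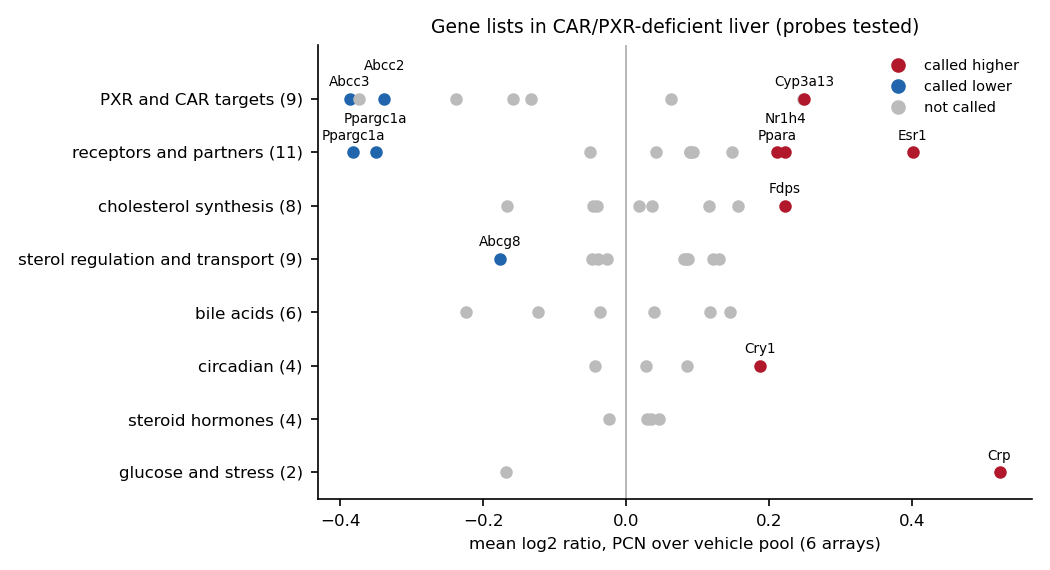
Mean log2 ratio of PCN-treated liver over vehicle pool in CAR/PXR-deficient livers (6 arrays) for the probes of 8 gene lists, with the number tested in brackets. Each point is a probe, coloured by the limma call, and called genes are named. All points lie between -0.4 and 0.6.

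Results were set beside their values without replicates 5 and 6. Calls were kept, among others, with means of 6.20 for ST_Mm_277, 1.61 for Fgb, 0.54 for Crp, 0.33 for Abcc1, -0.89 for Slco1b2, -0.55 for Cyp2c40, -0.41 for Abcc3, -0.30 for Abcc2 and 0.29 for Cyp3a13. Calls were lost for 13 named probes, among them Esr1 (0.06), Nr1h4 (0.17), Fdps (0.21), Ppp1r3c (-0.30) and both Ppargc1a probes (-0.25 and -0.27). ST_Mm_288, ST_Mm_051, Cry1, Abcg8, Foxo1, Gckr and Cyp2d22 were the others. Fewer arrays enter that fit.

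The response was then set against that of wild type livers over all probes. Of 236 probes, 46 (19.5%) differed, 26 being higher in CAR/PXR-deficient livers (11%) and 20 lower (8.47%), a split that was 13 and 4 without normalization within arrays. Of the 53 probes called in CAR/PXR-deficient livers, 29 also differed from wild type in the direction of their change. The arrays behind those calls are also the first term of the difference, which by itself favours a shared direction. The largest positive differences were ST_Mm_277 at 6.26, ST_Mm_279 at 6.19 and ST_Mm_280 at 5.90, and the largest negative ones were Cyp3a11 at -3.31 and Cyp3a41a at -3.09.

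**Figure D5:**
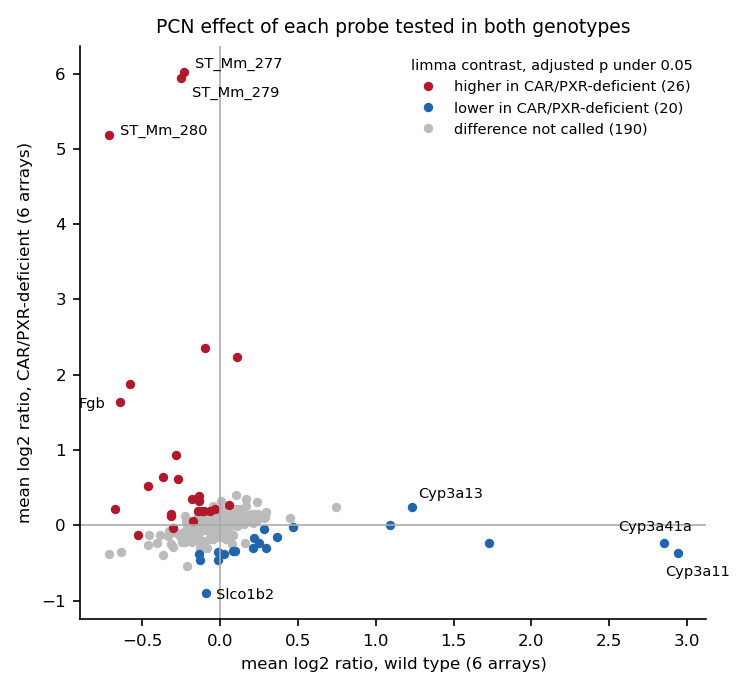
Mean log2 ratio of PCN-treated liver over vehicle pool for 236 probes, with CAR/PXR-deficient livers on the vertical axis and wild type livers on the horizontal axis, 6 arrays each. Colours mark the 26 probes that were higher and the 20 that were lower in CAR/PXR-deficient livers by the limma contrast. Cyp3a11 and Cyp3a41a lie near 3 on the wild type axis and below 0 on the other.

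Against CAR-deficient livers 53 probes differed (22.5%), 27 higher (11.4%) and 26 lower (11%) in CAR/PXR-deficient livers. Without normalization within arrays that split was 8 and 3. Against PXR-deficient livers 98 differed (41.5%), 57 higher (24.2%) and 41 lower (17.4%). There the split was 29 and 32 with arrays centred on their medians, 10 and 37 with control probes, and 8 and 1 without normalization. The calls against 0 rest on arrays that also enter each of these differences, so that a shared direction was favoured beforehand. Of the 53 called probes, 36 differed from CAR-deficient and 39 from PXR-deficient livers in the direction of their change. A set of 25 did so against all 3 genotypes, 13 rises and 12 falls, with no count over all probes to set beside it. With a gene they were Fgb, Crp, Abcc1 and Cry1 among the rises, and Slco1b2, Abcc2, Abcc3, Cyp2a12 and Cyp4b1 among the falls. For Abcc1 and Cry1 the vehicle pool was not well above background on any CAR/PXR-deficient array. The ratio of Cry1 also turned sign under control centring. Its difference from wild type was 0.25. That difference was not called without CAR/PXR-deficient replicate 2, 3 or 5 or wild type replicate 2, 3 or 4 (0.22 to 0.24). Cyp3a11 differed between CAR/PXR-deficient and PXR-deficient livers as well, by -0.68 (95% interval -1.10 to -0.26; limma adjusted p 0.00997). For Cyp3a41a that difference was -0.40 (limma adjusted p 0.0559). PXR-deficient livers averaged 0.30 for Cyp3a11 and 0.16 for Cyp3a41a, neither of which passed the test against 0.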

How the data were processed

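Liver RNA was hybridised to 24 spotted 2-colour arrays (Steroltalk V2), 6 of CAR/PXR-deficient mice. Per the labels, Cy5 is PCN-treated RNA and Cy3 the vehicle pool, extraction used TRIzol followed by RNeasy, and luciferase RNA was added before direct labelling. Per the file headers, the deposited tables hold the intensity of each channel and its background for 1440 spots, and the percent of pixels above background. The authors' deposited value table holds log2 ratios, whose scale and direction match the scanner values (r 0.882 to 0.996 per array); its centring is unknown, and its column medians for these 6 arrays ran from -0.20 to 0.08.

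The background of foreground medians was removed by normexp with an offset of 50 (R 4.3.3, limma 3.58.1). For Cy5 of CAR/PXR-deficient replicate 6 a maximum likelihood refit was used, since the default estimate of background, 3230, exceeded the median signal, 436.5. Arrays were normalized by loess (span 0.3, 4 iterations) weighted to unflagged mouse spots, and spots of a probe averaged. A probe was seen when over 50% of pixels were above background by 2 SD in at least 50% of its spots, and entered the test if any genotype had it on 50% or more of its arrays. The 24 arrays shared 1 limma model (lmFit, eBayes) holding 4 genotype coefficients, with Benjamini-Hochberg adjustment over 236 probes. Channel levels followed Aquantile normalization.

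Genes were named from the platform annotation, with symbols checked through RefSeq. Named genes were the 15 largest rises and falls sharing 1 sign on 5 or 6 arrays, called list members, and probes raised at least 2-fold in wild type. Genes, lists and tests were chosen with earlier results of these data known. Of 24 called genes, 20 had a RefSeq promoter. Transporter and P450 groups were formed by symbol after values were seen. The fit was tested on simulated data. The labels do not say whether replicate numbers pair genotypes. No 2 arrays were identical.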

Additional observations from a re-analysis of the deposited data

Results flagged for a closer look

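Single arrays stood far from the other 5 of their group for 8 of the named probes, by Dixon's test at the 95% level. On replicate 1 these were ST_Mm_292 at 2.97 (nearest other array 2.36), ST_Mm_284 at 1.68 (0.99), Cyp3a11 at -0.99 (-0.38) and Cyp2a12 at -0.67 (-0.31). On replicate 6 they were Esr1 at 1.67 (0.50) and Gckr, the glucokinase regulator, at -0.32 (-0.19). Cyp4b1 stood apart on replicate 4 with 0.12, where the nearest other array had -0.27, and ST_Mm_211 on replicate 5 with -0.081, where the nearest had -0.36. Over all 236 tested probes, 32 (13.6%) had such an array, 15 of them on replicate 6, 8 on replicate 1 and 5 on replicate 5. Chance alone marks about 1 group in 20.

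The effect of PCN differed between CAR/PXR-deficient and wild type livers for 29 of the 46 named probes, by the limma contrast between the genotypes. Over all 236 probes tested that share was 19.5%. Named probes were chosen by calls on the CAR/PXR-deficient arrays or by a rise on the wild type arrays. Both enter the difference, so that its presence and direction were favoured by the choice. Positive differences on the log2 scale, CAR/PXR-deficient minus wild type, were 6.26 for ST_Mm_277, 6.19 for ST_Mm_279, 5.90 for ST_Mm_280, 2.46 for ST_Mm_281, 2.45 for ST_Mm_292 and 2.13 for ST_Mm_291. Smaller ones were 1.21 for ST_Mm_284, 1.01 for ST_Mm_285, 0.88 for ST_Mm_283 and 0.53 for ST_Mm_288. With a gene they were 2.28 for Fgb, 0.99 for Crp, 0.52 for Abcc1 and 0.25 for Cry1. For Abcc1 and Cry1 the CAR/PXR-deficient vehicle pool was not well above background on any array, so that these 2 differences are less firmly measured. Negative differences were -3.31 for Cyp3a11, -3.09 for Cyp3a41a, -1.96 for ST_Mm_051, -1.08 for Mbtps1 and -0.98 for Cyp3a13, the 5 probes raised in wild type livers. The remaining genes were Slco1b2 at -0.81, Cyp4b1 at -0.59, Cyp2a12 at -0.51, Abcc2 at -0.43 and Abcc3 at -0.41. Probes without a gene were ST_Mm_139 at -0.44, ST_Mm_137 at -0.42, ST_Mm_295 at -0.34, ST_Mm_217 at -0.33 and ST_Mm_211 at -0.25.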

How the results depend on the processing

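The count of 53 probes changed against 0 became 34 with centring on 29 control probes, 9 without normalization within arrays, 88 with array quality weights, and 34 without CAR/PXR-deficient arrays 5 and 6. Leaving out 1 array of any genotype gave 43 to 65. The 46 differences from wild type became 22 with control centring and 17 without normalization, and 40 to 56 with 1 array left out. The 53 differences from CAR-deficient livers became 33 with median centring, 20 with control centring, 11 without normalization and 35 in the authors' value table, and 42 to 60 with 1 array left out. The 98 differences from PXR-deficient livers became 61 with median centring, 47 with control centring and 9 without normalization, and 88 to 110 with 1 array left out. The mean over the 5 probes raised in wild type, -0.12 on the CAR/PXR-deficient arrays, was 0.046 without normalization and -0.26 in the authors' value table, and -0.15 to -0.08 with 1 array left out. Signs turned for Cry1 (-0.0605) and Foxo1 (-0.051) against 0 and for Cry1 against PXR-deficient livers (-0.088) with control centring, for the differences from wild type of ST_Mm_217 (0.016) and ST_Mm_211 (0.11) without normalization, and for Esr1 (-0.032) in the authors' value table. The causes were not tested. With the replicate number as a block the counts were 55 against 0, 45 against wild type, 49 against CAR-deficient and 92 against PXR-deficient livers. The labels do not say whether a replicate number pairs samples across genotypes. Same-numbered arrays correlated from -0.231 to 0.289 with CAR-deficient, -0.417 to 0.071 with PXR-deficient and -0.245 to 0.272 with wild type arrays. These values cannot show whether a slide, day or litter was shared. Of the 43 named effects that were called, 9 kept direction and call under every alternative run (ST_Mm_277, ST_Mm_279, ST_Mm_280, ST_Mm_281, ST_Mm_284, ST_Mm_285, ST_Mm_291, ST_Mm_292 and Fgb). Another 12 changed only without normalization within arrays. Fgb ranged from 1.47 to 1.89. Dim signal limits Esr1, Abcc1, ST_Mm_264, Foxo1 and Cry1, whose vehicle pool was not well above background on any array. For ST_Mm_280 it was on 3 of 6.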

Other observations

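Of the 25 probes that rose, 19 had a lower level in the CAR/PXR-deficient vehicle pool than in the wild type pool, and 20 had a higher level after PCN than in wild type livers after PCN. Of the 28 that fell, 26 had a higher level in the CAR/PXR-deficient vehicle pool than in the wild type pool, and 11 had a lower level after PCN. Over all 236 probes tested, the vehicle pool was lower than the wild type pool for 91 and higher for 145. The level after PCN was higher than in wild type livers for 158 and lower for 78. Each pool is 1 sample, so that these counts describe the pools. The rises and falls were chosen by Cy5 over Cy3 on these same arrays. A low pool favours a rise and a high pool a fall, so that these counts were partly fixed by the choice.

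A few smaller changes were named after their values were seen. Foxo1, a transcription factor restrained by insulin signalling, had a mean log2 ratio of 0.21 in CAR/PXR-deficient livers. Fos, an immediate early gene, had -0.20 and was not called without replicate 4 or 6. Gckr had -0.18 and was not called without replicate 6.

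Of the 5 human probes on the array, 4 were seen on 6 of 6 CAR/PXR-deficient arrays, with mean log2 ratios of -0.04, -0.21, -0.15 and 0.04.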
